A study of Homo sapiens with 12 samples.

Results

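Fatty acids are burned in mitochondria and peroxisomes, and the transcripts that encode this route were followed in BT474 cells, an established HER2-positive human breast cancer line, through lapatinib tolerance and resistance. The set holds 38 genes, taken by symbol from the 26485 genes of the table: the PPAR and PGC-1 regulators, genes that answer to fatty acids, the carnitine shuttle, the enzymes of mitochondrial and peroxisomal β-oxidation, acyl-CoA thioesterases and the ketone body enzymes BDH1 and OXCT1. The rule names genes by their role in the pathway and uses no measured value. Of the 38, 35 reached the level asked for testing (1 or more in 3 or more libraries), and ANGPTL4, CPT1C and ACADL did not.

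Long-chain fatty acids enter mitochondria as carnitine esters, which the outer-membrane enzyme CPT1 makes, the translocase SLC25A20 carries across and the inner-membrane enzyme CPT2 converts back to acyl-CoA. Each turn of the β-oxidation spiral then uses an acyl-CoA dehydrogenase, a hydratase, a hydroxyacyl-CoA dehydrogenase and a thiolase, with the electrons passed on by electron transfer flavoprotein, while peroxisomes shorten very long and branched chains. PPARα and PPARδ are nuclear receptors that bind fatty acids, PGC-1α and PGC-1β are coactivators, and ERRα is an orphan receptor, all known for raising transcription of these enzymes.

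mRNA was sequenced from 4 groups of 3 libraries. Control cells were at day 0, drug-tolerant persisters (DTP) at day 9, drug-tolerant expanding persisters (DTEP) at month 6 and long-term resistant cells (LR) at month 9, all of wild-type genotype, with lapatinib, which blocks the kinases of HER2 and EGFR, at 1 µM. The treatment label reads lapatinib for the Control libraries too, and they were taken as the untreated start because their titles call them Control at day 0. The study speaks of technical replicates of a condition in a single cell line and of plates kept in parallel, so SDs and p-values measure the spread between libraries, which may be technical.

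Depth was 16383363 to 25030482 assigned reads per library, and a single read was worth 0.0412 to 0.0576 on the normalised scale used here, reads scaled to a common total by trimmed-mean factors, called normalised read counts. The levels of 3 reads that a library with 0 reads still allows were 0.124 to 0.173, for counting error only. DTEP replicate 3 stood apart from the other DTEP libraries. It lay nearer the LR mean than the mean of the other DTEP libraries for 23 of the 35 tested members (65.7%) and for 73.3% of all genes tested. The rises of PPARA and ACAD11 and the counts from DTEP to LR are therefore also given without it. The defining markers of HER2-positive luminal epithelium were present in every library. Between the earlier and the later groups, ERBB2, GRB7, KRT8, CDH1, GATA3 and EPCAM did not overlap, while KRT18 and KRT19 did. Of those that did not overlap, GATA3 and EPCAM were higher in the later groups and the rest lower. ERBB2 was at 6356 to 9136 in the Control and DTP libraries and 1244 to 2103 in the DTEP and LR libraries, CDH1 at 661 to 1146 and 60.6 to 150.0, and GATA3 at 183 to 461 and 909.8 to 1572, and the part of these markers in the changes below was not tested. Of 7 markers of immune, endothelial and fibroblast cells, CD3E had 0 reads, and PTPRC, PECAM1, COL3A1 and DCN had at most 4 reads in any library. COL1A1, at 48.1 to 130.4, and CD68, at 0.872 to 3.54, made up the sum of the list, which was 50.8 to 64.1 in the Control and DTP libraries and 82.8 to 131.8 in the DTEP and LR libraries; its part in the changes between DTP and DTEP was not tested. In bulk RNA, fewer cells of a kind and less RNA per cell cannot be told apart.

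The promoters of the members with the largest falls and the largest rise are shown first, with that of CPT1A, the gate of the pathway. Each is the 250 bases before the RefSeq start on GRCh38.p14, 5′ to 3′ on the strand of the gene, in lower case, with matches on either strand to TATAAA (the TATA box) and CACGTG (the E-box) in capitals. The regions are chr9:19127493-19127742 on the minus strand for PLIN2, chr18:49813534-49813783 on the minus strand for ACAA2, chr11:68844278-68844527 on the minus strand for CPT1A and chr22:46150276-46150525 on the plus strand for PPARA.
PLIN2: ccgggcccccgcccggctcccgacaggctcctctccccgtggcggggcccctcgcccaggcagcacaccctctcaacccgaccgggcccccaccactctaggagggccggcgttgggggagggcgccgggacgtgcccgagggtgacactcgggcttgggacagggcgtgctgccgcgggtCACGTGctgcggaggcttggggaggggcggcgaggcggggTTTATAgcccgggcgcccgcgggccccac
ACAA2: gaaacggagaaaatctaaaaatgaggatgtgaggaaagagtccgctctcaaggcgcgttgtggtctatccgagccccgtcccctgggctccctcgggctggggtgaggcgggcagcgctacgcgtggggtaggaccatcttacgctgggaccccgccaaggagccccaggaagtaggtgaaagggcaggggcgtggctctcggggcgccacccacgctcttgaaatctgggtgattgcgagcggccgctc
CPT1A: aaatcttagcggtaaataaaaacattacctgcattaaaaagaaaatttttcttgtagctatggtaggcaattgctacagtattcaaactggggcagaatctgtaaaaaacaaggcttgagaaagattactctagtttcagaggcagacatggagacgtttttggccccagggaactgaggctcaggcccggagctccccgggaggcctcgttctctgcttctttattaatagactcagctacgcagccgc
PPARA: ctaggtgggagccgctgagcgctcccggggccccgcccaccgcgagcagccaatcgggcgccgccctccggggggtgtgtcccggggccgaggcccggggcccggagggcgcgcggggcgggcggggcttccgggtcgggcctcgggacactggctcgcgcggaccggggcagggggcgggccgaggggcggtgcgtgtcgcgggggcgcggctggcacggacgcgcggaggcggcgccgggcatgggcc

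These promoters differed in base composition. The PPARA promoter was 84.4% G or C with 41 CpG pairs, that of PLIN2 78.0% with 28, that of ACAA2 63.6% with 20 and that of CPT1A 44.4% with 7, against medians of 58.0% and 11 over the 27305 promoters in the table. PLIN2 held a match to TATAAA on the opposite strand 29 bases before the start and one to CACGTG 69 bases before it, and the other three held neither. Promoters were at hand for 31 of the 38 members. For PPARGC1B, CPT1C, ETFB and ACOT2 the window lay inside the span of the gene, before an internal start. The hexamer AGGTCA, the core that PPAR and ERR receptors bind, occurred in 1 of the 31 (3.23%, ACAD10) and in 12.1% of all promoters. The longer letters AGGTCANAGGTCA (a PPAR element) and TCAAGGTCA (an ERR element) occurred in 0 of the 31, and in 0.0183% and 0.319% of all promoters. TATAAA occurred in 3 (9.68%, ANGPTL4, PLIN2 and ACADVL) against 11.1% of all, CACGTG in 2 (6.45%, PPARGC1A and PLIN2) against 6.49%, and TGACGTCA, the CREB site, in 1 (3.23%, ACOX3) against 1.77%. AGGTCA lies within both longer elements, both strands were searched, and these are matches of letters in a short window only.

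The question asked of each transition was which steps of the pathway moved as cells became tolerant, grew out and became resistant. In DTP cells, the ketone body enzyme OXCT1, the coactivator PPARGC1B and the peroxisomal oxidase ACOX3 were lower than in Control, while ACADVL, the very-long-chain acyl-CoA dehydrogenase, and ACAA1, a peroxisomal thiolase, were higher. Among the 35 tested members, 4 passed the test as higher (11.4%), against 25.2% of the 13794 genes tested, and 8 as lower (22.9%), against 28.8%. A gene passed at an adjusted p below 0.05 in limma, fitted to all 12 libraries on log2(value + 1). The other higher members were ACAD10 and ESRRA, and the other lower ones ETFA, HADH, HSD17B4, HADHA and CPT2. The median log2 change of the members was -0.12, beside -0.01 over all genes tested. Above an absolute log2 change of 1, 0 higher and 3 lower members passed, beside 9.24% and 15.8% of all genes, and above 2, 0 and 0, beside 1.01% and 3.9%. When the spread was taken only from the 6 libraries compared, 9 members passed as higher and 14 as lower, beside 35.6% and 37.9% of all genes.

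From DTP to DTEP, members moved both ways. PPARA and PPARD, CPT2, the hydratase ECHS1, the flavoprotein subunit ETFB, the peroxisomal enzymes ACOX3 and HSD17B4 and the ketone body enzymes OXCT1 and BDH1 were more than 1 log2 unit higher, while PLIN2, CPT1A, 4 of the 5 tested acyl-CoA dehydrogenases, the thiolase ACAA2, EHHADH and ESRRA were more than 1 log2 unit lower. In all, 15 members passed as higher (42.9% of those tested), against 35.7% of all genes, and 12 as lower (34.3%), against 32.6%. With an absolute log2 change above 1, the counts were 9 and 9, against 22.4% and 19.5% of all genes, and above 2 they were 2 and 4, against 8.13% and 7.02%. The medians were 0.10 for the members and 0.08 for all genes. The shares of members that passed were thus near the background in this transition. Rescaling by median-of-ratios factors moved the median of all genes by -0.10 here. The counts became 12 higher and 13 lower, beside 32.7% and 35.4% of all genes.

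**Figure D1:**
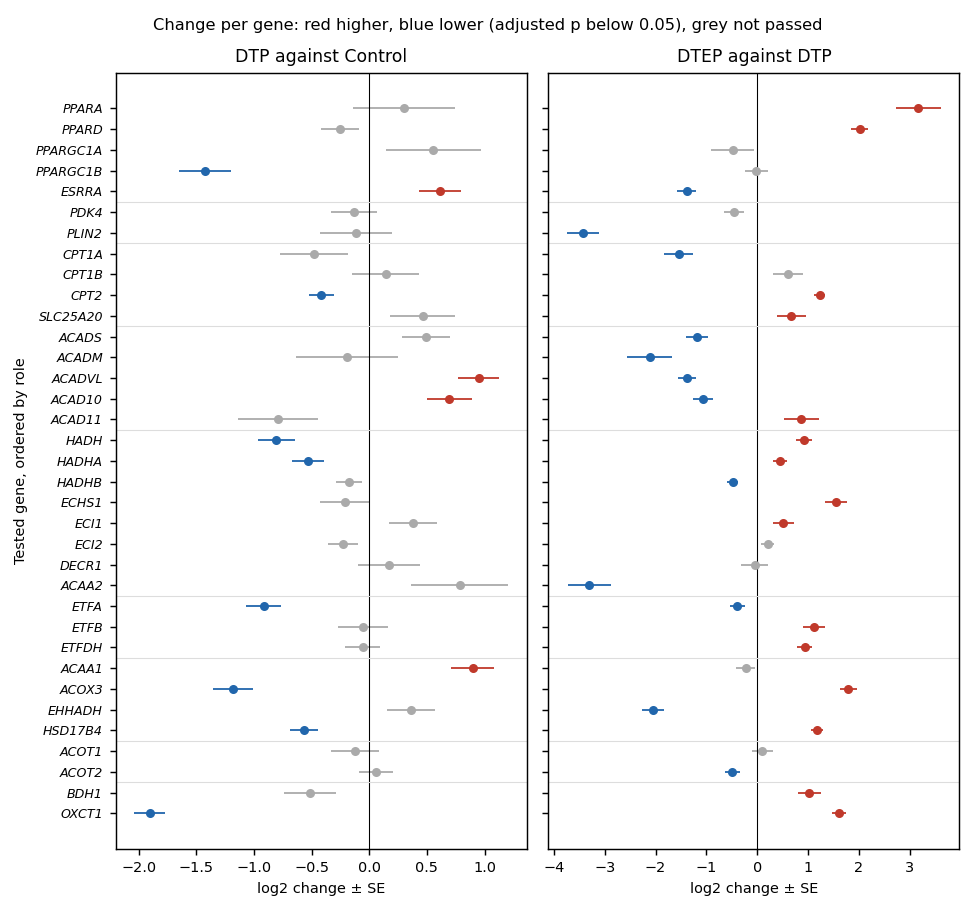
Log2 change of each tested member, on log2(normalised read count + 1), with its SE from limma, for DTP against Control (left) and DTEP against DTP (right). Red points passed as higher (4 and 15 genes), blue as lower (8 and 12) and grey did not pass at an adjusted p of 0.05; the 2 panels have different scales.

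Calls in the 3 successive comparisons fell into a few patterns. PLIN2, CPT1A, ACADS, ACADM, HADHB, ACAA2, EHHADH and ACOT2, 8 members, passed only between DTP and DTEP, as lower. PPARA, PPARD, ACAD11, ECHS1, ECI1, ETFB and BDH1, 7 members, passed only there as higher. CPT2, HADH, HADHA, ACOX3, HSD17B4 and OXCT1, 6 members, were lower in DTP than in Control and higher again in DTEP than in DTP, and ESRRA and ACAD10, 2 members, did the opposite, as did ACADVL, which was lower again in LR than in DTEP. For 6 tested members, PPARGC1A, PDK4, CPT1B, ECI2, DECR1 and ACOT1, no successive comparison passed. Neighbouring comparisons share a group of libraries, so these patterns only sort the calls, and a gene that missed the threshold was not shown to be level.

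**Figure D2:**
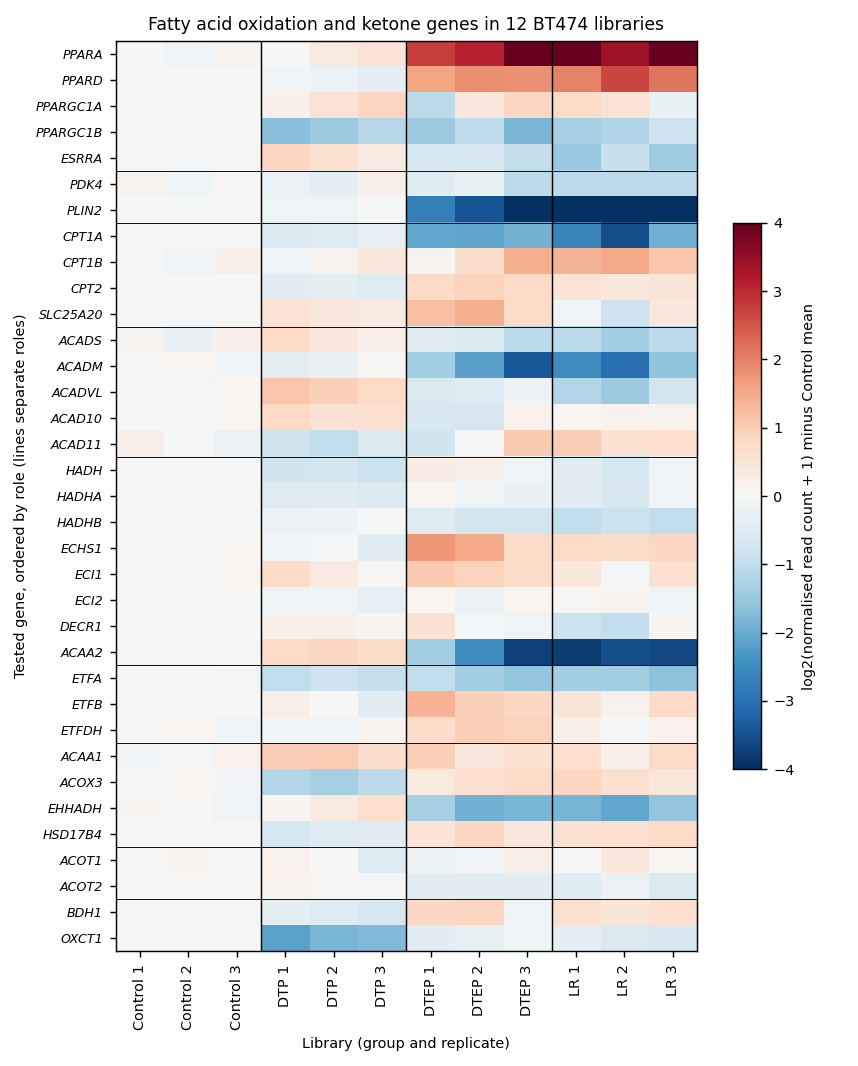
Heat map of the 35 tested members (rows, ordered by role) in the 12 libraries (columns): log2(normalised read count + 1) minus the mean of the Control libraries, red higher and blue lower. PPARA and PPARD turn red and PLIN2, CPT1A, ACADM, ACAA2 and EHHADH blue in the DTEP and LR columns, while OXCT1 and ACOX3 are darkest blue in the DTP columns.

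Among the regulators, the fatty acid receptors PPARA and PPARD rose in DTEP cells and ERRα and PGC-1β transcripts were lower in DTEP than in Control. PPARA (Entrez 5465, chromosome 22, 46150526 to 46243756 on GRCh38.p14, as for the coordinates below) had 1.79, 1.47 and 2.05 normalised read counts in the Control libraries, 1.72, 2.62 and 2.99 in DTP, 17.8, 22.3 and 64.0 in DTEP and 59.1, 28.1 and 76.7 in LR. All Control and DTP libraries lay below 3, and every DTEP and LR library lay at 17.8 or above, so the earlier and the later groups did not overlap. DTEP cells were 14.2-fold above DTP (log2 change 3.17, standard error, SE, 0.44, adjusted p 4.51e-05, limma), or 8.21-fold without DTEP replicate 3. LR cells were 30.9-fold above Control (log2 change 4.22, SE 0.44, adjusted p 4.96e-06), with the highest DTEP library inside the LR range.

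PPARD (Entrez 5467, chromosome 6, 35342558 to 35428178), the more widely expressed PPAR, had 48.3, 45.1 and 47.7 normalised read counts in the Control libraries, 42.2, 40.2 and 35.6 in DTP, 144, 172 and 171 in DTEP and 188, 306 and 210.2 in LR. DTEP libraries were all above Control and DTP, and LR libraries all above DTEP. The rise from DTP was 4.12-fold (log2 change 2.01, SE 0.17, adjusted p 7.50e-07), and the step from DTEP to LR did not pass (log2 change 0.50, SE 0.17, adjusted p 0.0737). PPARGC1A, which encodes PGC-1α (Entrez 10891, chromosome 4, 23792021 to 24472905), had 9.80, 9.24 and 10.2 in the Control libraries, 11.4, 15.2 and 18.6 in DTP, 4.21, 13.5 and 17.9 in DTEP and 17.3, 14.9 and 7.90 in LR. It passed in none of the 5 comparisons with all 12 libraries, but as higher in DTP than in Control with only the 6 libraries compared.

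PPARGC1B (Entrez 133522, chromosome 5, 149730310 to 149857959) had 47.1, 47.2 and 46.3 normalised read counts in the Control libraries, 14.0, 16.4 and 20.8 in DTP, 16.3, 22.8 and 12.3 in DTEP and 18.0, 19.9 and 25.9 in LR. Control libraries lay within 1 of each other and all 9 later libraries lay below 26. It fell 2.74-fold from Control to DTP (log2 change -1.42, SE 0.22, adjusted p 0.000275) and was still 2.21-fold lower in LR (log2 change -1.12, SE 0.22, adjusted p 0.000907). ESRRA, the gene of ERRα (Entrez 2101, chromosome 11, 64305524 to 64316743), had 64.1, 62.0 and 67.0 normalised read counts in the Control libraries, 118, 100.1 and 82.2 in DTP, 38.9, 40.2 and 32.5 in DTEP and 22.1, 34.5 and 23.3 in LR. DTP libraries were the highest and DTEP and LR libraries lay below all the Control libraries. ESRRA rose from Control to DTP (log2 change 0.61, SE 0.18, adjusted p 0.0144), a call that was lost without DTP replicate 1 (adjusted p 0.06998), and fell 2.69-fold from DTP to DTEP (log2 change -1.39, SE 0.18, adjusted p 3.12e-05). Of its exonic bases, 9.16% overlap TRMT112 on the opposite strand.

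**Figure D3:**
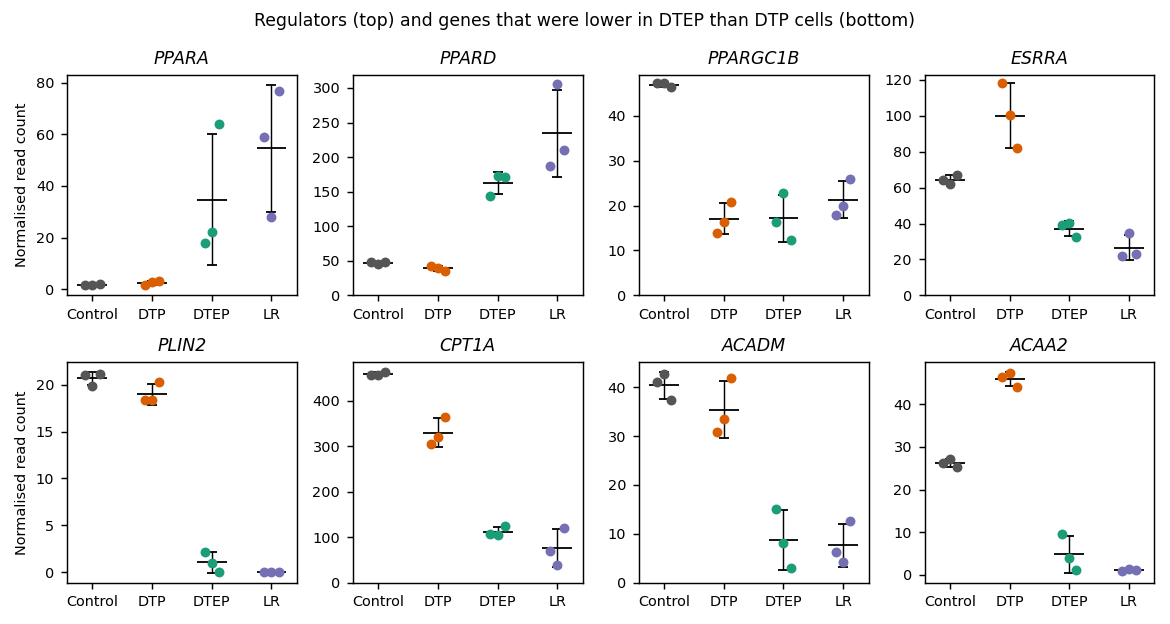
Normalised read count of 4 regulators (top) and 4 genes of fatty acid storage and oxidation (bottom) in each library (points), with the group mean and SD (bars, n = 3), on linear axes that differ between genes. PPARA and PPARD are high in the DTEP and LR libraries, while PLIN2, CPT1A, ACADM and ACAA2 are low there.

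Among the genes that answer to fatty acids, PLIN2 fell in DTEP cells, while PDK4 and ANGPTL4 had few reads in any group. PLIN2, the coat protein of lipid droplets (Entrez 123, chromosome 9, 19108388 to 19127492), had 21.0, 19.9 and 21.1 normalised read counts in the Control libraries, 18.3, 18.4 and 20.3 in DTP, 2.20, 0.989 and 0 in DTEP and 0, 0 and 0 in LR. DTEP replicate 3 and all 3 LR libraries had 0 reads, and no DTEP or LR library reached the level of any Control or DTP library. The fall from DTP to DTEP was 17.9-fold (log2 change -3.43, SE 0.31, adjusted p 1.49e-06), or 38.4-fold without DTEP replicate 1, which had the most reads of its group. Against Control, LR was at least 125-fold lower, computed at the level of 3 reads in each LR library (the fitted change depends on the pseudocount and is no bound, log2 change -4.44, SE 0.31, adjusted p 1.79e-07). PDK4, the pyruvate dehydrogenase kinase induced by fasting (Entrez 5166, chromosome 7, 95583499 to 95596516), had 1.24, 0.815 and 1.12 in the Control libraries, 0.731, 0.592 and 1.38 in DTP, 0.478, 0.700 and 0 in DTEP and 0, 0 and 0 in LR. DTEP replicate 3 and the LR libraries again had 0 reads, and LR was at least 6.37-fold lower than Control (log2 change -1.04, SE 0.20, adjusted p 0.000678) from a low start of at most 27 reads. ANGPTL4, a secreted inhibitor of lipoprotein lipase, had at most 2 reads in any library.

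In the carnitine shuttle, CPT1A of the outer membrane and CPT2 of the inner membrane moved in opposite directions in DTEP cells. CPT1A (Entrez 1374, chromosome 11, 68754620 to 68844277), the rate-limiting outer-membrane transferase outside muscle, had 456, 457 and 464 normalised read counts in the Control libraries, 304, 319.7 and 365 in DTP, 107, 105 and 124 in DTEP and 70.6, 38.5 and 119.6 in LR. The groups did not overlap from Control to DTP to DTEP, and the LR range reached up into that of DTEP. The first step did not pass (log2 change -0.48, SE 0.29, adjusted p 0.184), though it did without LR replicate 2 or with only the 6 libraries compared (adjusted p 0.000749), the fall from DTP to DTEP was 2.94-fold (log2 change -1.55, SE 0.29, adjusted p 0.000499), and LR stood 6.02-fold below Control (log2 change -2.72, SE 0.29, adjusted p 6.32e-06). CPT2 (Entrez 1376, chromosome 1, 53196824 to 53214197), the inner-membrane transferase, had 46.5, 43.9 and 46.4 in the Control libraries, 33.8, 35.3 and 32.7 in DTP, 80.2, 84.9 and 77.9 in DTEP and 65.8, 61.6 and 65.3 in LR. DTP libraries were the lowest and DTEP libraries the highest, with LR in between and above Control. CPT2 fell from Control to DTP (log2 change -0.42, SE 0.11, adjusted p 0.00636) and rose 2.39-fold to DTEP (log2 change 1.23, SE 0.11, adjusted p 1.06e-06).

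SLC25A20, the carnitine-acylcarnitine translocase (Entrez 788, chromosome 3, 48856926 to 48898882), had 6.16, 6.09 and 6.52 in the Control libraries, 9.76, 8.98 and 8.29 in DTP, 15.8, 18.4 and 11.3 in DTEP and 5.49, 3.04 and 8.72 in LR. DTEP libraries were the highest and the LR range crossed that of Control. The rise from DTP to DTEP passed narrowly (log2 change 0.67, SE 0.28, adjusted p 0.0485) and was lost in 16 of 23 alternative settings (other pseudocounts, filters, scalings and tests, and libraries left out in turn). The fall from DTEP to LR was 2.64-fold (log2 change -1.33, SE 0.28, adjusted p 0.0217) and was lost in 5 of 23. CPT1B, the muscle form of CPT1, passed against Control as higher in LR (log2 change 1.33, SE 0.29, adjusted p 0.00164), with 1.47, 1.30 and 1.91 in Control and 5.53, 6.36 and 4.46 in LR, but 66.4% of its exonic bases also belong to the readthrough gene CHKB-CPT1B, so its reads are uncertain. CPT1C, the brain form, had at most 15 reads in any library.

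The acyl-CoA dehydrogenases open the spiral, each for its own chain length, and 4 of the 5 tested fell from DTP to DTEP. ACADM (Entrez 34, chromosome 1, 75724709 to 75763679), for medium chains, had 41.1, 42.7 and 37.4 normalised read counts in the Control libraries, 30.8, 33.5 and 41.9 in DTP, 15.1, 8.11 and 2.92 in DTEP and 6.29, 4.15 and 12.5 in LR. Control and DTP overlapped, and every DTEP and LR library lay below them. The fall from DTP to DTEP was 4.07-fold (log2 change -2.12, SE 0.44, adjusted p 0.00106), or 6.42-fold without DTEP replicate 1. DLSTP1 on the opposite strand overlaps 9.83% of the exonic bases of ACADM, and RABGGTB on the same strand 1.14%. ACADS (Entrez 35, chromosome 12, 120725826 to 120740008), for short chains, had 2.07, 1.30 and 2.24 in the Control libraries, 3.91, 2.76 and 2.42 in DTP, 1.10, 0.906 and 0.337 in DTEP and 0.338, 0.111 and 0.388 in LR. DTP libraries lay above Control and both later groups lay below it. The fall to DTEP was 3.88-fold (log2 change -1.19, SE 0.21, adjusted p 0.000296).

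ACADVL (Entrez 37, chromosome 17, 7217125 to 7225266), for very long chains, had 303, 297 and 321 normalised read counts in the Control libraries, 657, 599 and 529 in DTP, 204, 217 and 266 in DTEP and 135, 110.4 and 183 in LR. No DTP library overlapped with another group, and LR libraries were the lowest. It rose 1.94-fold from Control to DTP (log2 change 0.95, SE 0.18, adjusted p 0.000897), fell 2.60-fold to DTEP (log2 change -1.38, SE 0.18, adjusted p 2.53e-05) and fell again to LR (log2 change -0.70, SE 0.18, adjusted p 0.0405), the last a call that was lost in 14 of 23 alternatives. ACAD10 (Entrez 80724, chromosome 12, 111686053 to 111757099), a family member with an additional kinase-like domain, had 45.3, 43.8 and 47.6 in the Control libraries, 79.6, 70.0 and 73.5 in DTP, 29.0, 27.9 and 51.9 in DTEP and 47.8, 50.4 and 49.8 in LR. DTP libraries were again the highest, and DTEP replicate 3 lay just above the LR libraries and apart from the other DTEP libraries. It rose to DTP (log2 change 0.69, SE 0.20, adjusted p 0.0107) and fell to DTEP (log2 change -1.07, SE 0.20, adjusted p 0.000414). ACAD11, for long and very long chains, passed as higher in DTEP than in DTP (log2 change 0.86, adjusted p 0.0431) with overlapping groups, a call that was lost in 15 of 22 alternatives, and its reads are uncertain. The rise of ACAD11 was 4.91-fold, or 2.19-fold without DTEP replicate 3. ACADL, the long-chain enzyme, had at most 13 reads in any library.

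Later steps of the mitochondrial spiral moved both ways, with ACAA2 and ECHS1 at the ends. ACAA2 (Entrez 10449, chromosome 18, 49782164 to 49813533), the thiolase that releases acetyl-CoA, had 26.2, 27.2 and 25.3 normalised read counts in the Control libraries, 46.3, 47.2 and 43.9 in DTP, 9.52, 3.91 and 1.07 in DTEP and 0.972, 1.38 and 1.21 in LR. DTP libraries lay above Control, a difference that did not pass (log2 change 0.78, adjusted p 0.135) but did without DTEP replicate 1, without DTEP replicate 3 (adjusted p 0.0112) or with only the 6 libraries compared (adjusted p 7.24e-05), and DTEP and LR libraries lay below both. The fall from DTP to DTEP was 9.48-fold (log2 change -3.30, SE 0.42, adjusted p 2.21e-05), or 18.4-fold without DTEP replicate 1, and LR was 22.1-fold below Control (log2 change -3.64, SE 0.42, adjusted p 1.15e-05). ECHS1 (Entrez 1892, chromosome 10, 133362485 to 133373354), the short-chain enoyl-CoA hydratase, had 75.8, 75.1 and 82.1 normalised read counts in the Control libraries, 71.4, 75.4 and 55.9 in DTP, 262, 228 and 131 in DTEP and 135, 129.6 and 139 in LR. DTEP and LR libraries all lay above Control and DTP, and DTEP replicate 3 lay at the LR level, below the other DTEP libraries. ECHS1 rose 3.06-fold from DTP to DTEP (log2 change 1.55, SE 0.21, adjusted p 4.51e-05).

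Of the other members at these steps, HADH, the hydroxyacyl-CoA dehydrogenase, fell to DTP (log2 change -0.81, adjusted p 0.00132) and rose to DTEP (log2 change 0.92, adjusted p 0.000291), from 133 to 138 over 73.7 to 80.5 and up to 119.7 to 169, and its LR libraries lay at 83.3 to 125. ECI1, an enoyl-CoA isomerase, passed as higher in DTEP than in DTP (log2 change 0.51, adjusted p 0.0444), a call that was lost in 13 of 23 alternatives. ECI2, its relative in mitochondria and peroxisomes, and DECR1, the dienoyl-CoA reductase for unsaturated chains, passed in none of the 5 comparisons with all 12 libraries. With only the 6 libraries compared, ECI2 passed as lower and DECR1 as higher in DTP than in Control. DECR1 also passed as lower in LR than in DTEP without DTEP replicate 3 or LR replicate 3. Against Control, it passed as lower in LR without DTEP replicate 1 or LR replicate 3. Over all 12 libraries, ECI2 lay between 136 and 186 and DECR1 between 37.1 and 115.

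Paired subunits of a complex did not keep step. The pairs below were singled out after their values were seen. HADHA and HADHB encode the α and β subunits of the mitochondrial trifunctional protein. HADHA had 296, 289.8 and 299 normalised read counts in the Control libraries, 207, 208 and 195 in DTP, 313, 273 and 247 in DTEP and 218, 191 and 265 in LR. HADHB had 199.6, 203 and 199 in the Control libraries, 169, 173 and 191 in DTP, 142, 121 and 117 in DTEP and 101, 111 and 101 in LR. From DTP to DTEP, HADHA rose (log2 change 0.44, SE 0.14, adjusted p 0.0128) and HADHB fell (log2 change -0.49, SE 0.11, adjusted p 0.00234). Within a library, the ratio of HADHA to HADHB reads lay between 1.43 and 1.50 in Control, between 1.02 and 1.23 in DTP, between 2.11 and 2.26 in DTEP and between 1.71 and 2.63 in LR. DTP libraries were thus the lowest and both later groups lay above Control without overlap.

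ETFA and ETFB encode the subunits of electron transfer flavoprotein, which takes electrons from the acyl-CoA dehydrogenases, and ETFDH the enzyme that hands them to ubiquinone. ETFA had 357, 356 and 341 normalised read counts in the Control libraries, 178, 196 and 183 in DTP, 176, 136 and 116 in DTEP and 137, 133 and 112 in LR. ETFB (Entrez 2109, chromosome 19, 51345155 to 51366388) had 54.5, 51.2 and 52.6 in the Control libraries, 63.9, 54.0 and 37.9 in DTP, 141, 104 and 94.0 in DTEP and 74.0, 60.0 and 91.5 in LR. Control libraries were the highest for ETFA and all DTEP libraries were above Control and DTP for ETFB. ETFA fell from Control to DTP (log2 change -0.92, SE 0.15, adjusted p 0.000334), while ETFB did not pass there and rose 2.17-fold from DTP to DTEP (log2 change 1.11, SE 0.21, adjusted p 0.000568). The ETFB to ETFA ratio lay between 0.144 and 0.154 in Control, between 0.207 and 0.359 in DTP, between 0.763 and 0.809 in DTEP and between 0.453 and 0.815 in LR, so that DTEP and LR libraries lay above all DTP libraries and these above all Control libraries. The ratios are a description, since the pairs were chosen for them. An exact permutation test between groups of 3 libraries cannot give a p below 0.1, so it could not decide whether the ratios differed. ETFDH had 19.7, 20.4 and 17.7 in the Control libraries, 17.8, 16.8 and 21.0 in DTP, 32.7, 38.6 and 37.0 in DTEP and 22.4, 18.2 and 21.7 in LR. It was highest in the 3 DTEP libraries, rose from DTP (log2 change 0.93, SE 0.15, adjusted p 0.000174) and fell to LR (log2 change -0.77, SE 0.15, adjusted p 0.0176), the latter lost in 3 of 23 alternatives.

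**Figure D4:**
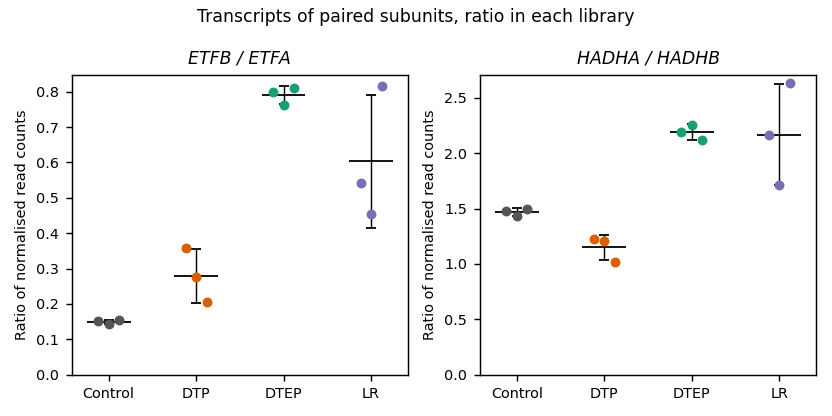
Ratio of normalised read counts of ETFB to ETFA (left) and of HADHA to HADHB (right) in each library (points), with group mean and SD (bars, n = 3). The axes start at 0; the ETFB to ETFA ratio is at most 0.359 in Control and DTP libraries and at least 0.453 in DTEP and LR libraries.

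Peroxisomal enzymes were lowest in DTP for ACOX3 and HSD17B4 and lowest in DTEP and LR for EHHADH. ACOX3 (Entrez 8310, chromosome 4, 8355305 to 8440723), an oxidase for branched chains, had 14.4, 15.0 and 13.2 normalised read counts in the Control libraries, 5.79, 5.03 and 6.28 in DTP, 18.7, 23.3 and 24.9 in DTEP and 26.6, 22.9 and 19.7 in LR. DTP libraries lay below all others, and every DTEP and LR library lay above Control. It fell 2.49-fold to DTP (log2 change -1.18, SE 0.17, adjusted p 0.00017) and rose 3.91-fold to DTEP (log2 change 1.79, SE 0.17, adjusted p 2.48e-06). HSD17B4 (Entrez 3295, chromosome 5, 119452497 to 119542332), the D-bifunctional protein of the next steps, had 118, 118 and 119.7 in the Control libraries, 72.2, 82.4 and 85.7 in DTP, 175, 210.0 and 163 in DTEP and 181, 188 and 208 in LR. Its order of groups was the same as that of ACOX3. It fell to DTP (log2 change -0.57, SE 0.12, adjusted p 0.00244) and rose 2.28-fold to DTEP (log2 change 1.18, SE 0.12, adjusted p 4.98e-06).

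EHHADH (Entrez 1962, chromosome 3, 185190624 to 185254049), the L-bifunctional protein that does the same steps as HSD17B4 on other substrates, had 7.59, 7.12 and 6.24 in the Control libraries, 7.57, 9.13 and 11.3 in DTP, 2.15, 1.11 and 1.23 in DTEP and 1.18, 0.885 and 1.70 in LR. All DTEP and LR libraries lay below all Control and DTP libraries. It fell 6.22-fold from DTP to DTEP (log2 change -2.05, SE 0.21, adjusted p 3.69e-06), and LR remained 5.57-fold below Control (log2 change -1.84, SE 0.21, adjusted p 1.07e-05). ACAA1, the peroxisomal thiolase, rose 1.88-fold from Control to DTP (log2 change 0.90, SE 0.18, adjusted p 0.00163), from 34.0 to 41.8 to 60.5 to 74.4, and was 50.0 to 71.6 in DTEP and 42.1 to 63.3 in LR. Of its exonic bases, 19.7% overlap DLEC1 on the opposite strand.

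Of the ketone body enzymes, OXCT1, which activates acetoacetate for use as fuel, dipped in DTP cells. OXCT1 (Entrez 5019, chromosome 5, 41730065 to 41870425) had 157, 159.8 and 158 normalised read counts in the Control libraries, 35.3, 43.9 and 46.1 in DTP, 116, 129.8 and 141 in DTEP and 124, 105 and 102 in LR. The 3 DTP libraries lay far below the other 9, and Control libraries were the highest. It fell 3.78-fold to DTP (log2 change -1.90, SE 0.13, adjusted p 9.18e-07) and rose 3.09-fold to DTEP (log2 change 1.61, SE 0.13, adjusted p 7.55e-07). BDH1 (Entrez 622, chromosome 3, 197509783 to 197573343), which interconverts acetoacetate and 3-hydroxybutyrate, had 105, 108 and 111 normalised read counts in the Control libraries, 83.3, 75.9 and 67.9 in DTP, 194, 195 and 97.2 in DTEP and 171, 151 and 173 in LR. DTEP replicate 3 lay below the Control libraries and apart from the other DTEP libraries, though above DTP. BDH1 rose 2.14-fold from DTP to DTEP (log2 change 1.02, SE 0.22, adjusted p 0.00138). ACOT1 and ACOT2, near-identical thioesterases of cytosol and mitochondria whose reads may be split between them, stayed between 2.36 and 5.48 and between 11.8 and 19.9, and ACOT2 passed as lower in DTEP than in DTP (log2 change -0.50, adjusted p 0.00973).

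From DTEP to LR, 3 members passed as lower (8.57%), SLC25A20, ETFDH and ACADVL, against 4.31% of all genes, and 0 as higher, against 3.04%. Above an absolute log2 change of 1, 1 lower and 0 higher members were left, beside 2.5% and 1.45% of all genes, and above 2 none, beside 0.457% and 0.225%. At an unadjusted p below 0.05 in limma, 17 members were lower and 2 higher, beside 20.7% and 14.2% of all genes. edgeR, on the whole reads recovered from the values, gave 5 lower and 0 higher, beside 8.56% and 3.78% of all genes, and DESeq2 8 lower and 1 higher, PPARD, beside 15.1% and 7.34%. Without DTEP replicate 3, 16 members passed as lower and 5 as higher, where 28.2% and 19.3% of all genes did. The 5 higher ones were then PPARA (log2 change 1.30, adjusted p 0.00972), PPARD, CPT1B, ACAD10 (log2 change 0.77, adjusted p 0.000283) and ACAD11, and the lower ones included ACAA2 (log2 change -1.72, adjusted p 0.000403), PLIN2 (log2 change -1.34, adjusted p 0.000317) and ECHS1 (log2 change -0.86, adjusted p 0.000522). Without DTEP replicate 2 no member passed in either direction, where 0.494% of all genes were lower and 0.552% higher, nor without LR replicate 2, where 0.974% and 1.02% were. Without DTEP replicate 1 or LR replicate 1 a single member passed as lower, where 1.03% and 1.02% of all genes did, and without LR replicate 3 it was 6, where 5.18% did. With the spread of the 6 libraries alone, none of the 13777 genes tested passed, members included. The median log2 change was -0.23 for the members and -0.07 for all genes.

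**Figure D5:**
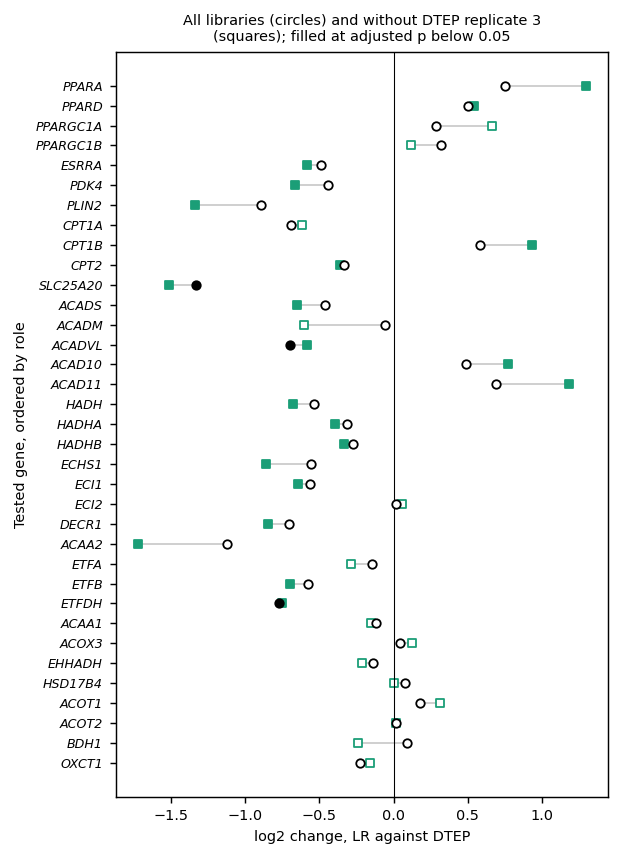
Log2 change of each tested member from DTEP to LR with all libraries (black circles) and without DTEP replicate 3 (green squares), filled where limma's adjusted p was below 0.05. With all libraries 3 members passed, and without that library 21 did, 16 lower and 5 higher.

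Against Control, DTEP cells had 12 members higher, where 29.5% of all genes passed, and 12 lower, where 28.7% did, of 35 tested (34.3% each). LR cells had 9 higher (25.7%), against 30.2% of all genes, and 16 lower (45.7%), against 32.6%. Above an absolute log2 change of 1, DTEP had 5 higher and 7 lower members, beside 15.1% and 16.4% of all genes, and LR 3 and 11, beside 16.9% and 19.6%. Above 2, the counts were 1 and 4 in DTEP, beside 4.43% and 6.2%, and 2 and 4 in LR, beside 5.03% and 7.8%. The comparisons share the Control libraries, and their values stand side by side here for members not given above. ECHS1 had 1.34 in DTEP and 0.78 in LR (log2 change, adjusted p 0.000195 and 0.007, limma), CPT2 0.82 and 0.48 (4.23e-05 and 0.00188), and HSD17B4 0.61 and 0.69 (0.00116 and 0.000438), so these oxidation enzymes stood above their starting level in both groups. ETFA had -1.32 and -1.46 (1.18e-05 and 4.07e-06), HADHB -0.66 and -0.94 (0.000332 and 1.78e-05), and ACADM -2.31 and -2.37 (0.000741 and 0.000556), all below Control. SLC25A20 had 1.13 in DTEP (adjusted p 0.00404) and -0.19 in LR, where it did not pass (0.564). Summed over the 38 members, Control libraries gave them between 0.294% and 0.300% of assigned reads, DTP libraries between 0.273% and 0.290%, DTEP libraries between 0.250% and 0.272% and LR libraries between 0.209% and 0.255%. Such a sum weighs abundant members most, and CPT1A, ETFA and ACADVL had the highest levels in Control.

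Neighbouring genes of the pathway gave a wider view. Of 37 other oxidation and ketone genes, 35 were tested, and 9 passed as higher and 10 as lower from Control to DTP, beside 25.2% and 28.8% of all genes, and 9 and 15 from DTP to DTEP, beside 35.7% and 32.6%. From DTEP to LR 0 and 1 passed in limma, beside 3.04% and 4.31%, with 1 higher and 9 lower at an unadjusted p below 0.05, beside 14.2% and 20.7%. edgeR gave 3 lower there and DESeq2 7, beside 8.56% and 15.1%. In DTP, PDK2, a pyruvate dehydrogenase kinase, rose from 85.5 ± 2.59 to 254 ± 27.3 (mean ± SD, n = 3, log2 change 1.56, adjusted p 4.84e-05) and BDH2 from 20.8 ± 1.49 to 53.3 ± 3.03 (log2 change 1.32, adjusted p 0.00254). The carnitine acetyltransferase CRAT fell from 653 ± 31.9 to 98.4 ± 10.5 (log2 change -2.72, adjusted p 7.58e-07). In DTEP, ACOX2, a peroxisomal oxidase, had 19.1, 7.17 and 1.23 normalised read counts, against 0, 0 and 0.0576 in DTP (log2 change 2.81, adjusted p 0.000896). The DTP values lay under the level of 3 reads, and DTEP replicate 3 lay inside the LR range of 0.664 to 2.42. PHYH, the phytanoyl-CoA hydroxylase, fell to 2.49 ± 1.96 (log2 change -2.82, adjusted p 1.62e-05), and ACSF2, an acyl-CoA synthetase, to 40.4 ± 9.86 (log2 change -2.92, adjusted p 2.08e-07).

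The same shares of all genes stand behind the counts of the next lists. Of 22 genes that supply fatty acids, 14 were tested, with 5 higher and 4 lower in DTP against Control and 7 and 4 in DTEP against DTP. From DTEP to LR 0 passed in limma, with 1 higher and 3 lower at an unadjusted p below 0.05, and edgeR and DESeq2 each gave 1 lower. PLIN1 (droplet coat) and PNPLA2 (the first lipase of triglyceride) rose in DTP (log2 change 1.57, adjusted p 6.96e-05 and log2 change 1.24, adjusted p 0.000116), and the synthetases ACSL1 and SLC27A2 fell (log2 change -1.57, adjusted p 3.18e-05 and log2 change -1.46, adjusted p 0.0256). In DTEP, LIPE (hormone-sensitive lipase) and ACSL1 rose (log2 change 2.28, adjusted p 4.17e-06 and log2 change 1.48, adjusted p 1.60e-05), and MGLL (monoglyceride lipase) and PLIN1 fell (log2 change -3.68, adjusted p 0.00059 and log2 change -1.91, adjusted p 5.06e-06). Of 15 fatty acid synthesis genes, 14 were tested, with 1 higher and 9 lower in DTP against Control and 7 and 7 in DTEP against DTP. From DTEP to LR 0 passed in limma, with 0 higher and 5 lower at an unadjusted p below 0.05, and 2 lower in edgeR and 3 in DESeq2. The desaturase SCD fell from 1005 ± 25.8 to 29.3 ± 2.62 (log2 change -5.05, adjusted p 6.08e-06) and rose to 774 ± 451 (log2 change 4.45, adjusted p 3.97e-06), fatty acid synthase FASN fell in DTP (log2 change -2.46, adjusted p 2.61e-05), and the regulator SREBF1 rose in DTEP (log2 change 3.78, adjusted p 8.08e-08). Malic enzyme ME1 and the desaturase FADS2 fell in DTEP (log2 change -3.25, adjusted p 1.42e-06 and log2 change -3.44, adjusted p 7.59e-06).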

How the data were processed

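mRNA from 12 BT474 libraries (4 groups of 3) had been sequenced after stranded library preparation. The authors aligned the reads to hg38 and counted them per RefSeq gene with Rsubread 2.0.0, per the study's methods, and the submitters' processing notes name edgeR. The deposited values are a normalised signal per gene and library. They are not counts, but 100% of the values above 0 were whole multiples of the value of a single read (largest distance from a whole number 1.2e-09, tolerance 1e-06), so the reads behind them were recovered. The scale equalled reads per fixed total of the trimmed-mean-scaled library size, as recomputed with edgeR. Depth was 16383363 to 25030482 assigned reads. Counting used the default settings of the package, which take no account of strand, so reads of overlapping genes on either strand cannot be told apart.

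Here log2(value + 1) was fitted with limma 3.58.1 in R 4.3.3, as the study also did on logarithms of the values with 1 added, over all 12 libraries without covariates, with moderation that follows a trend. The test took the 13794 of 26485 genes that reached 1 in 3 or more libraries. Tests were two-sided, with Benjamini-Hochberg adjustment over all genes of each of 5 comparisons, and a gene passed at an adjusted p below 0.05. The study's threshold of an absolute log2 change above 2 was an alternative, since most members are enzymes that move by less. Because 1 is added, a log2 change understates the change of low genes. Folds are ratios of group means, and against libraries with 3 reads or fewer they are lower bounds. The fits were tested on simulated reads.

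Members were described library by library when they passed with an absolute log2 change above 1 and groups that did not overlap in at least 1 of the 3 successive comparisons, which took 20 members. The others are given in ranges, except PPARGC1A, PDK4, CPT1B, HADHA, HADHB, ETFA and ETFDH, chosen after their values were seen. From the other lists, up to 2 genes in each direction per successive comparison are named by size of change. Some genes that this rule takes are not reported here. The members and lists were chosen with earlier results of these data known. Promoters and coordinates are from RefSeq (GRCh38.p14, which hg38 also names), and exonic overlaps from GENCODE.

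Alternatives were other pseudocounts, filters, scalings and moderation, the 6 libraries compared alone, a replicate block, edgeR 4.0.16 and DESeq2 1.42.0 on recovered reads, thresholds on the change and leaving out each library. The edgeR count test called 3683 genes as higher and 3532 as lower from Control to DTP, 4934 and 4458 from DTP to DTEP, and 522 and 1181 from DTEP to LR. No batch is given in the labels, so none was tested.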

Additional observations from a re-analysis of the deposited data

How the results depend on the processing

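Of 91 gene and comparison results that passed, none changed direction under any alternative, and 9 lost the call when only the 6 libraries compared set the spread, 7 in edgeR, 3 in DESeq2 and 4 under median-of-ratios scaling. With single libraries left out, 4 to 11 of the 89 to 91 results fitted lost the call, 11 each without Control replicate 1, 2 or 3 and without LR replicate 1. In DTP against Control, 4 higher and 8 lower became 0 and 3 at an absolute log2 change above 1 and 0 and 0 above 2, and 9 and 14 with only the 6 libraries compared. In DTEP against DTP, 15 higher became 9 above 1 and 2 above 2, and 12 lower became 4 above 2. In LR against DTEP, 0 higher became 1 in DESeq2, and 3 lower became 5 in edgeR, 8 in DESeq2, 0 with only the 6 libraries, 1 above 1 and 0 above 2. In DTEP against Control, 12 higher became 5 and 1 and 12 lower became 7 and 4 at these thresholds. In LR against Control, 9 higher became 3 and 2, and 16 lower became 4 above 2. The cause of these moves was not tested, beyond the thresholds' own stringency. Leaving out single libraries gave 3 to 6 higher and 8 to 10 lower members in DTP against Control. All genes gave 18.7% to 30.3% and 23.2% to 33.4% there. In DTEP against DTP it gave 12 to 14 and 11 to 12, beside 32.4% to 38.2% and 28.5% to 33.5%. In DTEP against Control it gave 11 to 12 and 9 to 14, beside 25.4% to 33.0% and 24.1% to 30.7%. In LR against Control it gave 7 to 11 and 12 to 17, beside 26.9% to 33.7% and 27.8% to 36.2%. In LR against DTEP the range was 0 to 5 higher and 0 to 16 lower, with both highest values without DTEP replicate 3 and 0 lower without DTEP replicate 2 or LR replicate 2. The shares of all genes there ran from 0.552% to 19.3% higher and from 0.494% to 28.2% lower.

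Whether same-numbered libraries were paired was not settled. The correlation of their deviations exceeded 0.1 in 2 of 18 pairs of groups and numbers (r from -0.44 to 0.36), both DTP with DTEP. Of 12 libraries, 2 correlated best with their own number. Deviations from a mean of 3 libraries sum to 0, so this check cannot exclude a pairing. With a replicate block, 13 members passed as higher and 12 as lower in DTEP against DTP, beside 35.4% and 32.3% of all genes. With it, 4 of the 91 results lost the call. At 3 reads or fewer, levels of ANGPTL4, of PDK4 in LR and of PLIN2 in LR cannot be told from 0, and genes with overlapping or near-identical neighbours (ACAD11, CPT1B, ACOT1, ACOT2) keep uncertain reads.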
